A study of Mus musculus with 12 samples.

Results

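The genes described here encode the receptors of the interleukin-6 family, the kinases and the transcription factor Stat3 that act below them, and genes that Stat3 is known to induce. Members were chosen by name: the receptor chains Il6ra, Il6st, Osmr and Lifr, the kinases Jak1 and Jak2, the factor Stat3, its feedback inhibitor Socs3, and the induced genes Pim1 and Bcl3. All 10 were found among the 14188 protein-coding genes of the table, with 26 of its 29883 transcripts. The choice rule named the genes and set no threshold on a measured value. However, these genes and the lists of other genes below were chosen with earlier results of these data known.

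Interleukin-6, oncostatin M and leukaemia inhibitory factor bind receptor complexes that share the chain Il6st, also called gp130. Janus kinases bound to these chains then phosphorylate Stat3, which enters the nucleus and switches on genes, among them Socs3, whose product turns the receptor off again. In the liver this pathway is best known for the acute-phase response, in which hepatocytes secrete fibrinogen, serum amyloid A and haptoglobin after injury or infection, and for its part in regeneration.

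The liver RNA was that of 12 mice killed at week 8, 6 in each group. All of them received CCl4, a solvent that injures hepatocytes and leads to fibrosis, as intraperitoneal injections in corn oil 2 times a week at 10 µl/g of the mixture. PZH group mice were also given Pien Tze Huang, a traditional Chinese medicine, into the stomach 1 time a day at 0.25 mg/g, and control mice were given water. The methods describe male C57BL/6J mice aged 6 weeks at the start, whereas the sample labels name the strain C57BL/8. A group without CCl4 was not analysed here, so every level below is that of an injured liver. Each mouse was 1 library, and the FPKM of its listed transcripts summed to between 325302 and 370426.

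Levels are gene FPKM, the sum of the FPKM of a gene's protein-coding transcripts, which is already divided by transcript length. Fold changes are differences of log2(FPKM + 1), PZH minus control, which understates the change of genes at low FPKM. Adjusted p-values are those of limma with Benjamini-Hochberg adjustment over all 14188 genes, and a gene was called below 0.05. Of the 10 genes, 7 were called and all 7 were lower in the PZH group: Il6st, Osmr, Jak1, Jak2, Stat3, Socs3 and Bcl3. Among all genes 44.8% were called, 32.1% lower and 12.7% higher. Of the genes with a mean FPKM of at least 1, which all 10 had, 37.8% were called as lower. In 6 of the 10 genes every PZH mouse was below every control mouse, as was true of 17.9% of all genes. Il6ra, Lifr and Pim1 were not called.

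**Figure D1:**
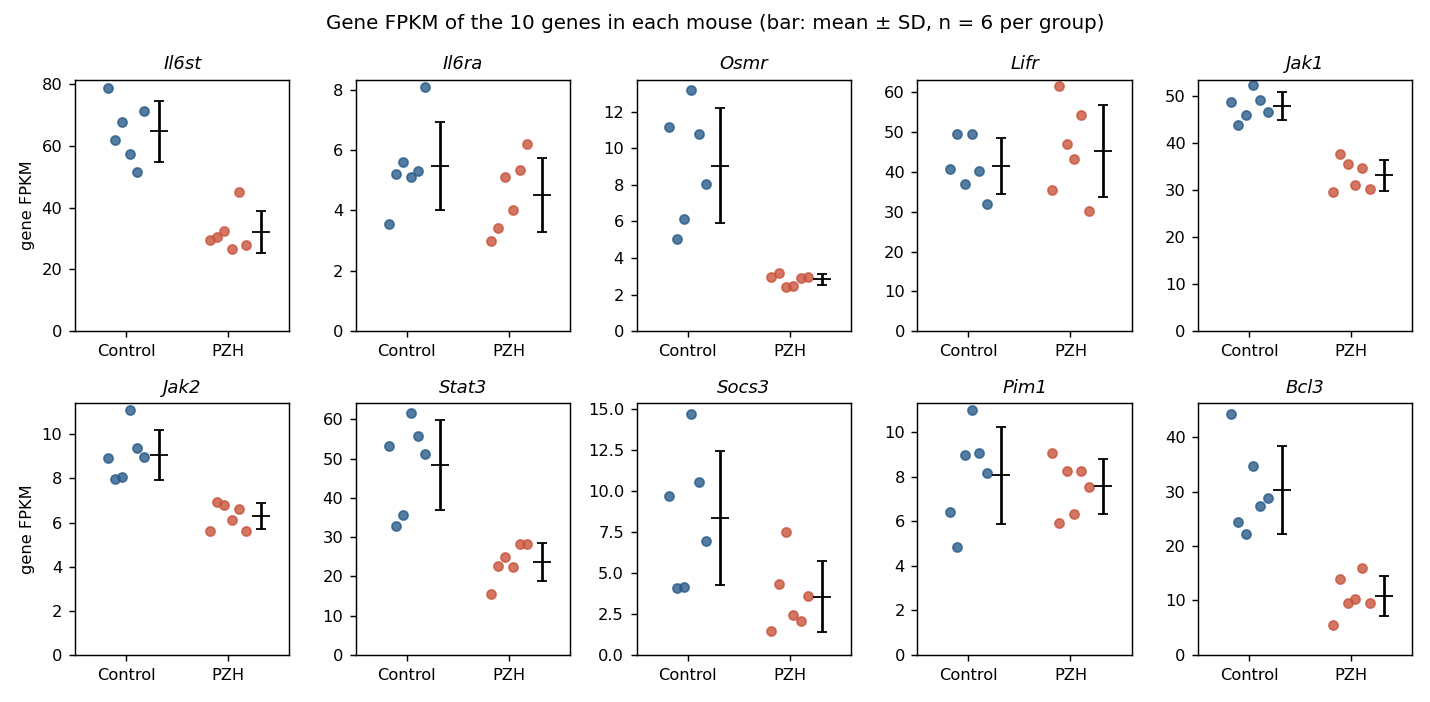
Gene FPKM (linear axis from 0) of the 10 genes, with 1 point per mouse, 6 control and 6 PZH mice, and bars for mean ± SD. The groups are apart for Il6st, Osmr, Jak1, Jak2, Stat3 and Bcl3, and overlap for Il6ra, Lifr, Socs3 and Pim1.

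The median log2 fold change of all genes was -0.11, and division of each mouse by a median-ratio scale factor brought it to -0.00491. The share of calls that were lower went from 71.7% to 50.5% under that scaling. All 7 genes remained called and lower, at -1.26 for Bcl3, -1.18 for Osmr, -0.89 for Socs3, -0.82 for Il6st, -0.81 for Stat3, -0.34 for Jak1 and -0.30 for Jak2. The estimate of Pim1 changed sign, from -0.06 to 0.11. In bulk liver, fewer cells of a type and less RNA per cell cannot be told apart.

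**Figure D2:**
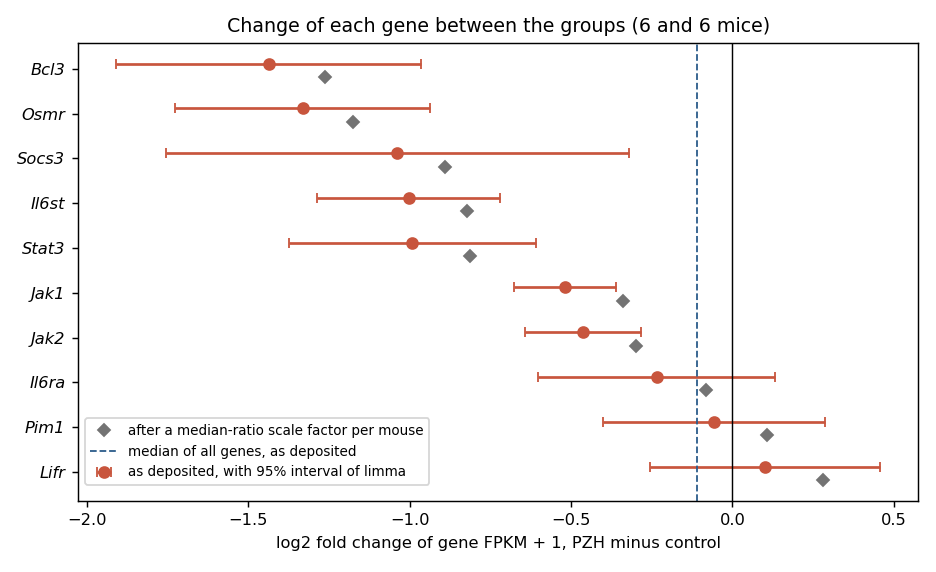
Log2 fold change of gene FPKM + 1 (PZH minus control, 6 and 6 mice) as deposited, with limma's 95% interval, and after a median-ratio scale factor per mouse (diamonds). The dashed line is the median of all genes at -0.11. Bcl3 stands at -1.44 and Osmr at -1.33, while the intervals of Il6ra, Pim1 and Lifr include 0.

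Il6st, the signalling chain that most receptors of the family use, ranged from 51.4 to 78.7 FPKM in the control mice (median 64.7). In the PZH mice it ranged from 26.5 to 45.2 (median 29.97). No PZH mouse reached the lowest control mouse. The mean was 2.02-fold lower, 31.98 ± 6.76 (SD, n = 6) against 64.7 ± 9.87 (SD, n = 6), with -1.002 on the log2 scale (SE 0.13, limma, adjusted p = 8.87e-05).

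Osmr, the chain that pairs with Il6st to bind oncostatin M, showed the largest ratio of group means among the 10 genes. Its FPKM ran from 2.44 to 3.17 in the PZH mice (median 2.94) and from 5.05 to 13.2 in the control mice (median 9.41). The 6 PZH mice lay within 1 FPKM of each other, whereas the control mice were widely spread. The mean was 3.20-fold lower in the PZH group, 2.83 ± 0.293 (SD, n = 6) against 9.06 ± 3.17 (SD, n = 6), which is -1.33 on the log2 scale (SE 0.18, limma, adjusted p = 0.000122).

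Lifr, which pairs with Il6st to bind leukaemia inhibitory factor, lies next to Osmr in family and in place: both are on chromosome 15, on opposite strands and 254589 bases apart in GRCm38 (Osmr chr15:6813577-6874969, Lifr chr15:7129559-7197489). Lifr ranged from 30.2 to 61.6 FPKM in the PZH mice (median 45.1) and from 31.9 to 49.6 in the control mice (median 40.5). The groups overlapped, with a log2 fold change of 0.10 (95% interval -0.26 to 0.46, limma, adjusted p = 0.651).

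Il6ra, the chain that binds interleukin-6 itself, ranged from 2.998 to 6.21 FPKM in the PZH mice (median 4.56) and from 3.56 to 8.07 in the control mice (median 5.27). These ranges overlapped as well. The log2 fold change was -0.23 (95% interval -0.60 to 0.13, limma, adjusted p = 0.286).

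Jak1 and Jak2 are the receptor-bound tyrosine kinases of the pathway, and both were lower by a similar factor. Jak1 ran from 29.7 to 37.6 FPKM in the PZH mice (median 32.9) and from 43.8 to 52.3 in the control mice (median 47.7). Its groups were narrow and apart, with means of 33.1 ± 3.29 and 47.8 ± 2.98 (SD, n = 6 each) and a difference of -0.52 on the log2 scale (SE 0.07, limma, adjusted p = 0.000143). Jak2 ran from 5.60 to 6.95 FPKM in the PZH mice (median 6.36) and from 7.97 to 11.1 in the control mice (median 8.94). Here too no values overlapped, and the difference was -0.46 on the log2 scale (SE 0.08, limma, adjusted p = 0.000684).

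Stat3, the transcription factor that the kinases phosphorylate, ranged from 15.4 to 28.2 FPKM in the PZH mice (median 23.8) and from 32.8 to 61.7 in the control mice (median 52.2). The highest PZH mouse lay below the lowest control mouse. The mean was 2.05-fold lower, 23.6 ± 4.77 (SD, n = 6) against 48.3 ± 11.6 (SD, n = 6), which is -0.99 on the log2 scale (SE 0.18, limma, adjusted p = 0.000647). RNA levels do not give the phosphorylation of Stat3, which was not measured in these libraries.

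Socs3, which binds Il6st and the Janus kinases and blocks further signalling, was called with the largest error of the 7. Its FPKM ran from 1.49 to 7.498 in the PZH mice (median 3.01) and from 4.09 to 14.7 in the control mice (median 8.33). The groups overlapped, and 4 of the 6 PZH mice were below the lowest control mouse. The difference was -1.04 on the log2 scale (SE 0.33, limma, adjusted p = 0.0222), and a two-sided exact permutation test of the same difference gave p = 0.0238. With single mice left out the adjusted p of limma ran from 0.0066 to 0.0493.

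Bcl3 and Pim1 are both known to be induced through Stat3, and only Bcl3 was called. Bcl3, a nuclear partner of Nf-kb subunits, ran from 5.48 to 15.9 FPKM in the PZH mice (median 9.94) and from 22.1 to 44.2 in the control mice (median 28.0). The groups were apart, the mean was 2.81-fold lower, and the log2 fold change of -1.44 was the largest of the 10 genes (SE 0.22, limma, adjusted p = 0.000228). Pim1, a kinase that favours survival and growth, ran from 5.92 to 9.05 FPKM in the PZH mice (median 7.90) and from 4.83 to 10.99 in the control mice (median 8.56). All PZH values of Pim1 lay inside the control range, with a log2 fold change of -0.06 (95% interval -0.40 to 0.29, limma, adjusted p = 0.798). The difference between the changes of Bcl3 and Pim1 was not tested.

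The study called transcripts by a 2-fold change with a p below 0.05. With these cutoffs applied here to gene FPKM and the unadjusted p of limma, 4 of the 10 genes passed. These were Il6st, Osmr, Socs3 and Bcl3, all lower, where 4.02% of all genes passed in either direction and 2.5% passed as lower. Stat3 missed the fold criterion at -0.99, and Il6st met it at -1.002.

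Ratios between 2 genes of the same mouse do not depend on how the library was scaled, apart from the pseudocount of 1. Of 5 such ratios, 2 differed between the groups by a two-sided exact permutation test over all 924 labellings of the mice, whose smallest possible p is 0.0022. The log2 ratio of Il6ra to Il6st ran from -2.93 to -2.01 in the PZH mice and from -4.13 to -2.99 in the control mice. On this scale all 6 PZH mice were above every control mouse, by 0.77 on average (SE 0.22, exact permutation p = 0.0022, adjusted over the 5 ratios 0.0108). With 0.1 in place of 1 as pseudocount the groups overlapped and 4 PZH mice were above every control mouse, with a difference of 0.74 (exact permutation p = 0.0108, adjusted 0.0271).

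The ratio of Osmr to Lifr was lower in the PZH group by a log2 difference of -1.43 (SE 0.26, exact permutation p = 0.00433, adjusted 0.0108). It ran from -3.91 to -2.97 in the PZH mice and from -3.06 to -1.78 in the control mice, where 1 control mouse lay within the PZH range. With 0.1 as pseudocount the difference was -1.67 and the groups were apart (exact permutation p = 0.0022, adjusted 0.0108). Socs3 relative to Stat3, the inhibitor relative to its activator, averaged -2.53 with PZH and -2.48 without it, a difference of -0.05 (SE 0.27, exact permutation p = 0.892). Osmr relative to Il6st differed by -0.33 (SE 0.25, exact permutation p = 0.238, adjusted 0.298). Jak2 relative to Jak1 was the tightest ratio, with a difference of 0.06 (SE 0.04, exact permutation p = 0.167, adjusted 0.278). Without control 4 that difference was 0.085 (exact permutation p = 0.00866, unadjusted). With 0.1 as pseudocount these 3 differences were -0.23 for Socs3 to Stat3, -0.55 for Osmr to Il6st and 0.013 for Jak2 to Jak1 (exact permutation p = 0.498, 0.0823 and 0.781).

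**Figure D3:**
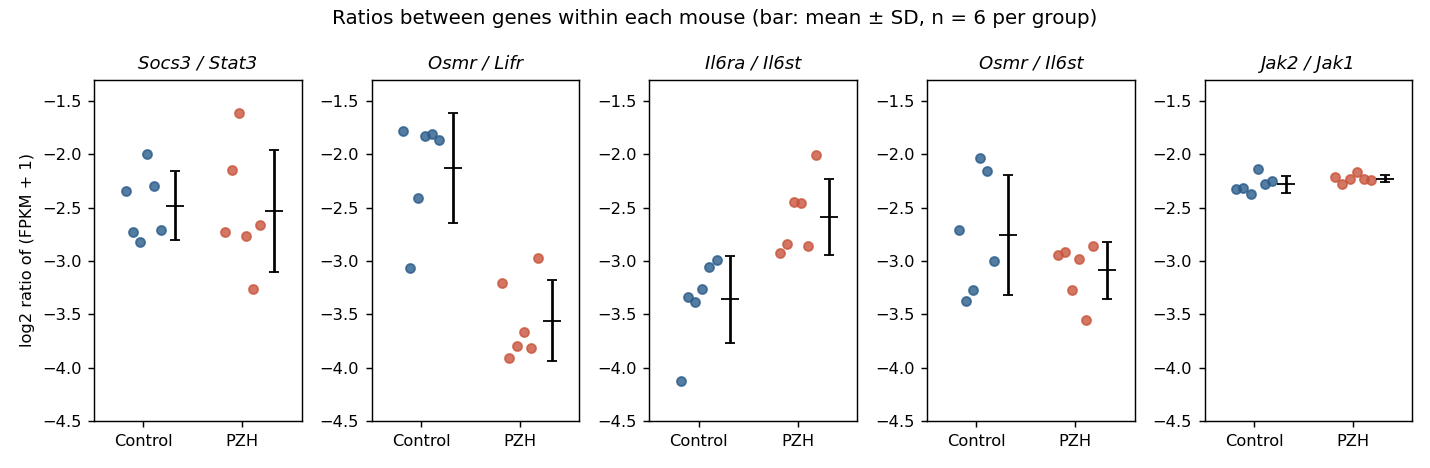
Log2 ratio of (FPKM + 1) of 2 genes within each mouse, with 1 point per mouse (6 control, 6 PZH) and bars for mean ± SD. On this scale, with a pseudocount of 1, Il6ra to Il6st is higher in every PZH mouse than in any control mouse (not with 0.1), and Osmr to Lifr is lower in the PZH group by 1.43 on average.

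FPKM is per length, so the levels of the 10 genes may be put in order within a group. In the control mice the order of mean gene FPKM was Il6st, Stat3, Jak1, Lifr, Bcl3, Jak2, Osmr, Socs3, Pim1 and Il6ra. In the PZH mice it was Lifr, Jak1, Il6st, Stat3, Bcl3, Pim1, Jak2, Il6ra, Socs3 and Osmr. By these means Il6st stood at the top among the control mice and Lifr among the PZH mice, and Osmr went from the seventh to the last place. Il6st was above Stat3 in 4 of 6 control mice. Jak2 was above Osmr in 3 of 6 control mice, and Socs3 was above Osmr in 3 of 6 PZH mice. Neighbours were compared within each mouse by a two-sided exact sign-flip permutation test. With 6 mice its smallest p is 0.03125, so adjustment over the 18 pairs left little room for a call (smallest adjusted p = 0.169), and the gaps are given as values. Bcl3 exceeded Jak2 in 6 of 6 control mice, by 1.605 ± 0.298 on the log2 scale (SD). Stat3 exceeded Bcl3 in 6 of 6 PZH mice by 1.10 ± 0.326, and Lifr exceeded Jak1 in 6 of 6 by 0.41 ± 0.254 (exact permutation p = 0.03125 for all 3). In the other 15 pairs at least 1 mouse had the opposite order.

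The transcripts were tested 1 by 1 with limma over all 29883, and 8 of the 26 were called, all lower. They are the strongest transcript of Il6st, Osmr, Jak1, Jak2 and Bcl3 and all 3 transcripts of Stat3. Over all transcripts 19.7% were called and 14.0% were called as lower. In 7 of the 26 the groups were apart with PZH lower, as in 8.58% of all transcripts. These 7 were all among the 8 called, where the Stat3 transcript of 770 codons overlapped. Socs3 has a single listed transcript, which was not called in the fit over transcripts (adjusted p = 0.0548). Of the 26, 8 had a mean FPKM under 1, and 5 were listed at 0 in at least 1 mouse.

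Stat3 is known in a full-length form and in a shorter form whose tail lacks most of the transactivation domain, and the table held both. The forms of 770 codons (ENSMUST00000127638) and 769 codons (ENSMUST00000092671) are full-length, and that of 722 codons (ENSMUST00000103114) joins to a later acceptor inside the same coding exon. The sequences below are of GRCm38 and are given 5′ to 3′ on the coding strand, the minus strand of chromosome 11. The capitals in the 770-codon form mark the 50 coding bases, chr11:100889541-100889590, that the 722-codon form skips. The capitals in the 722-codon form mark what follows the same 20 bases there, 25 bases in another reading frame up to and including the stop codon.
Stat3, 770 codons: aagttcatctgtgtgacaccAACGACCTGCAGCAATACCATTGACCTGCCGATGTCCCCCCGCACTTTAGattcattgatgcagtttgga
Stat3, 722 codons: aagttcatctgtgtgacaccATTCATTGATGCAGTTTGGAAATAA
The 769-codon form lacks 3 bases of the 770-codon form, chr11:100893074-100893076, shown here in capitals with 15 coding bases on each side, so these forms differ by 1 codon in length.
Stat3, 770 codons: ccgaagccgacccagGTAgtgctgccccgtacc

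All 3 Stat3 transcripts were called as lower. The 722-codon form averaged 4.54 ± 1.11 FPKM in PZH mice and 9.90 ± 1.97 in control mice (SD, n = 6 each; log2 fold change -0.98, SE 0.16, limma over transcripts, adjusted p = 0.00117). The 769-codon form, the strongest, averaged 14.8 ± 2.99 and 29.7 ± 6.78 (log2 fold change -0.95, SE 0.18, adjusted p = 0.00257). The 722-codon form held from 17.1% to 20.9% of Stat3 FPKM in the PZH mice and from 19.2% to 22.4% in the control mice. The mean shares, 19.1% ± 1.38 and 20.7% ± 1.20 (SD, n = 6 each), did not differ past the threshold (two-sided exact permutation test, p = 0.0693).

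Lifr also has a short coding form. Its strongest transcript, of 1092 codons (ENSMUST00000171588), holds most of the FPKM. The transcripts ENSMUST00000227727 and ENSMUST00000164529, with identical coding sequences of 719 codons, share its first 2152 coding bases and then read into 8 bases of their own, chr15:7185067-7185074, that end in a stop codon. A soluble Lif receptor made from shortened transcripts is known in the mouse. In the lines below the lower case is the last shared stretch, and the capitals are the bases particular to each form: all 8 of the 719-codon form with its stop codon, and the first 30 of the 1092-codon form.
Lifr, 719 codons: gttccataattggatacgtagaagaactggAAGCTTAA
Lifr, 1092 codons: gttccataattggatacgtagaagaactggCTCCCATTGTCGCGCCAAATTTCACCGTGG

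The 719-codon forms held 30.03% ± 15.3 of Lifr FPKM in PZH mice and 17.0% ± 12.2 in control mice (SD, n = 6 each), a difference within the spread between mice (two-sided exact permutation test, p = 0.121). In 5 PZH mice the share was between 30.8% and 43.8%, and in PZH 6 it was 0.244%. The control mice split as well, with 23.4% to 32.7% in control 1, 2 and 4 and 5.06% to 7.52% in control 3, 5 and 6. The 1092-codon forms together averaged 30.7 ± 5.83 FPKM in PZH mice and 33.8 ± 3.15 in control mice. Transcript values of 1 gene rest on how the assembler divides reads that fit several forms.

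**Figure D4:**
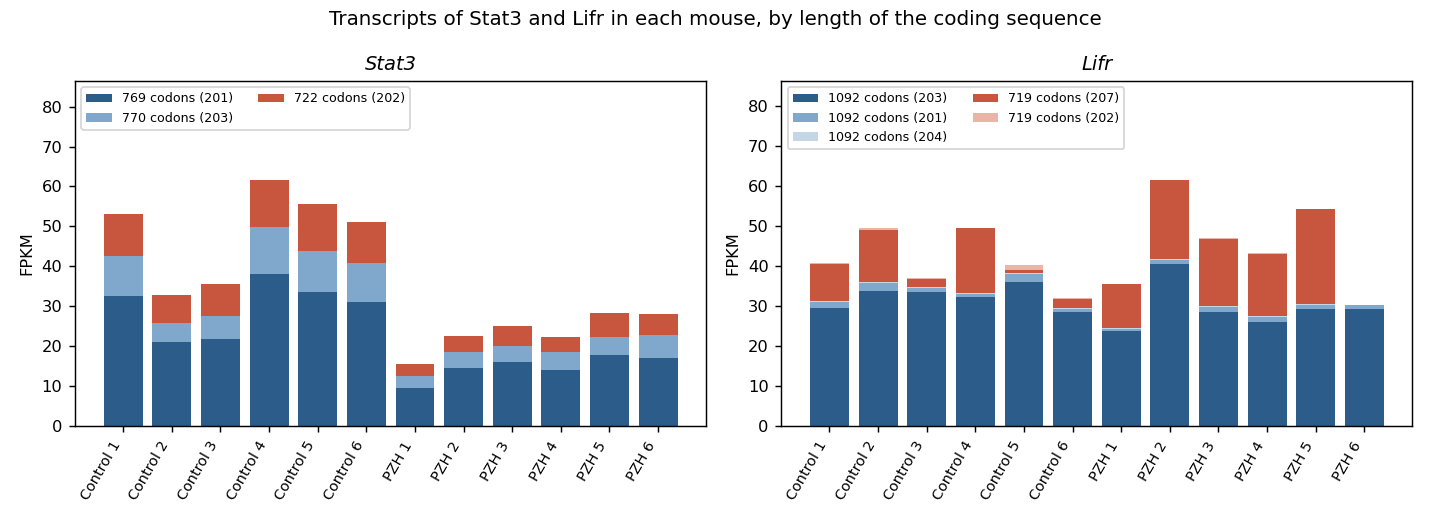
FPKM of the Stat3 and Lifr transcripts, stacked, in each of the 12 mice, coloured by the length of the coding sequence (blue: full length; red: short forms). Stat3 is lower in all PZH mice with a short-form share of 17.1% to 22.4% throughout, while the share of the short Lifr forms runs from 0.244% to 43.8%.

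The share held by a gene's strongest transcript was tested in 8 of the 10 genes, those with several transcripts, by a two-sided exact permutation test. None of the 8 was called after adjustment over the 6676 genes tested, and neither was any other gene (0.0%, smallest adjusted p = 0.136). The smallest possible p of this test is 0.0022, so a call would have needed many genes at that p. The lack of calls therefore does not show that the shares were unchanged. Without adjustment, 1 of the 8 and 12.4% of all genes had an exact p below 0.05. The 1 was Pim1, whose 313-codon transcript held 73.4% ± 9.11 in PZH mice and 48.6% ± 22.8 in control mice (SD, n = 6 each; exact permutation p = 0.0281, adjusted 0.319).

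Stat3 binds palindromic sites spelled TTCNNNGAA. This spelling and a second one that fixes fewer bases, TTNCNNNAA, were searched for on both strands in the RefSeq promoter windows of the 10 genes (GRCm38.p6). A site can match both spellings, but the second fixes a base that the first leaves free, so neither contains the other. Of 32851 windows of 300 bases over the genome, 8.3% held the first and 36.6% the second. Socs3, Il6st and Stat3 are shown, the inhibitor, the receptor chain and the factor itself. Each was called and has a match in the 250 bases before its start site and outside the listed exons. Jak2 also meets these conditions and is not shown, so the windows shown do not stand for all 10 genes. Whether the 10 genes held matches more often than windows over the genome was not tested. Capitals mark the matches.
Socs3: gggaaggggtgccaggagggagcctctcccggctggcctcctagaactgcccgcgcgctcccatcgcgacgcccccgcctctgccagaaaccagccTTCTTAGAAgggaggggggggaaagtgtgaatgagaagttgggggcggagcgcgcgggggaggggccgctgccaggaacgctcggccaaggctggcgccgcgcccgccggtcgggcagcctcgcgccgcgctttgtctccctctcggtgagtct
Il6st: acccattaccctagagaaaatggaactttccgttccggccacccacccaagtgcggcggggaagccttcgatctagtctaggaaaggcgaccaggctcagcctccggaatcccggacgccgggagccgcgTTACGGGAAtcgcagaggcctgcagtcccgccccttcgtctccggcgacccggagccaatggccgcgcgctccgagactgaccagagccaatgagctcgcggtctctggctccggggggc
Stat3: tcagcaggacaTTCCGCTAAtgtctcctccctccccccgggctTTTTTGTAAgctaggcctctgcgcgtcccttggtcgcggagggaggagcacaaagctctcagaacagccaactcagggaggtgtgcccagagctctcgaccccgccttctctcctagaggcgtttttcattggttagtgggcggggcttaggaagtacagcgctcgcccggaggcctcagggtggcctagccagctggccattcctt
The Socs3 bases, chr11:117969367-117969616 on the minus strand, hold TTCTTAGAA, 154 bases before the RefSeq start site, which is itself 180 bases upstream of the listed transcript. The Il6st bases, chr13:112463820-112464069 on the plus strand, hold TTACGGGAA. The Stat3 bases, chr11:100939541-100939790 on the minus strand, hold TTCCGCTAA and TTTTTGTAA. Only the Socs3 match is of the first spelling, and those of Il6st and Stat3 are of the second. Jak2 and Osmr each hold a match to the second spelling, as does Il6ra, which was not called. All 250 Osmr bases lie in exons of its listed transcripts, and its RefSeq start site is 656 bases from the nearest listed start. Neither spelling was found in the windows of Jak1, Bcl3, Lifr and Pim1. A match is a string of letters and not a measured binding site.

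Genes around the members were grouped by role, and 94 of the 100 listed were in the table. Of these, 56 were called as lower, 2 as higher and 36 were not called, where 32.1% of all genes were called as lower and 12.7% as higher. The median log2 fold change over the 94 was -0.35 (-0.21 after the median-ratio scale factor), against -0.11 over all genes. With that factor 49 of the 94 were called in either direction, against 58 without it. Over all genes these counts were 5530 and 6358. Counts of calls and fold changes of single genes in the lists below are those without the factor.

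Ligands of the family were weakly expressed, with group means of at most 1.96 FPKM. Of 9 measured, 4 were called as lower and none as higher. Among all genes 44.8% were called in either direction and 32.1% as lower. Clcf1, a ligand of the ciliary neurotrophic factor receptor, had the largest called fall on the log2(FPKM + 1) scale, from 1.03 ± 0.655 FPKM in control mice to 0.163 ± 0.219 in PZH mice (SD, n = 6 each; log2 fold change -0.75, limma, adjusted p = 0.014). Il11, named after its values were seen, averaged 0.318 ± 0.138 FPKM in control mice and 0.00991 ± 0.0114 in PZH mice, where 3 mice were listed at 0, and its groups were apart (log2 fold change -0.38, limma, adjusted p = 0.000854). The strongest 2 were Ctf1, cardiotrophin 1, at 1.96 and 1.20 FPKM in the PZH and control groups (adjusted p = 0.103), and Cntf at 0.848 and 1.19 FPKM (adjusted p = 0.265). Il6, Osm and Il31 were not analysed here.

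The other receptors that pair with Il6st or Osmr moved in both directions. Il11ra1, which binds interleukin-11, rose from 7.02 ± 1.01 to 9.57 ± 1.64 FPKM (SD, n = 6 each; log2 fold change 0.40, SE 0.11, limma, adjusted p = 0.0101). Il27ra fell from 0.980 ± 0.258 to 0.440 ± 0.205 FPKM (log2 fold change -0.46, adjusted p = 0.00452). The other 2 of 4 measured were not called.

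Of the 8 other Janus kinases and Stats, 5 were called as lower, against 32.1% of all genes. Tyk2, the third Janus kinase that binds Il6st, fell from 9.84 ± 0.645 to 6.38 ± 1.399 FPKM (SD, n = 6 each; log2 fold change -0.58, SE 0.12, limma, adjusted p = 0.00155). Stat6, which acts for interleukin-4 and interleukin-13, fell by 0.26 on the log2 scale (adjusted p = 0.0314).

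Inhibitors of the pathway other than Socs3 were called as lower in 7 of 14, against 32.1% of all genes. Socs5 had the largest fall, from 7.56 ± 0.929 to 3.46 ± 0.798 FPKM, with no overlap between the groups (SD, n = 6 each; log2 fold change -0.95, SE 0.11, limma, adjusted p = 5.21e-05). Pias2, which blocks Stats in the nucleus, fell by 0.29 on the log2 scale (adjusted p = 0.0215). The phosphatase Ptpn6 was at 11.4 and 11.7 FPKM and was not called (adjusted p = 0.833).

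Il6st also signals through Shp2 and the Mapk cascade, and through Yap1. In this branch 5 of 13 genes were called as lower, a share near that of all genes (32.1%), among them Yap1 (log2 fold change -0.72, SE 0.10, adjusted p = 0.000164) and the adaptor Shc1 (-0.53, adjusted p = 0.00371), both from limma. Of the 6 genes for receptor shedding and turnover, 3 were called as lower, against the same 32.1%. The ubiquitin ligase Rnf41 fell by 0.59 on the log2 scale and Stub1 fell by 0.40, while Adam10, a protease that sheds Il6ra, was at 18.7 and 19.0 FPKM (adjusted p = 0.933).

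Genes known to be induced by Il6 and Stat3 form the longest list. Of 33 measured, 25 were called as lower, 1 as higher and 7 were not called, with a median log2 fold change of -1.16 (-0.97 after the scale factor). Among all genes 32.1% were called as lower, and 37.8% of those with a mean FPKM of at least 1. Fga, the alpha chain of fibrinogen, ran from 1420 to 1738 FPKM in the PZH mice and from 2925 to 5250.0 in the control mice (log2 fold change -1.31, SE 0.12, limma, adjusted p = 1.56e-05). Hpx, which scavenges haem, ran from 1779 to 2456 and from 2604 to 5531 FPKM (log2 fold change -0.80, adjusted p = 0.00145). Both were apart between the groups.

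Saa2, serum amyloid A2, had the largest called fall of the list, -2.73 on the log2 scale (SE 0.80, limma, adjusted p = 0.0145). It ran from 3.08 to 10.2 FPKM in the PZH mice and from 6.61 to 494.4 in the control mice, so the groups overlapped at the low end. Birc5, an inhibitor of apoptosis that also acts in cell division, went the other way, from 0.351 ± 0.203 to 2.47 ± 0.946 FPKM (SD, n = 6 each; log2 fold change 1.32, SE 0.18, adjusted p = 0.000137).

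The last list holds the other Pim kinases and the Nf-kb subunits that Bcl3 binds or accompanies. Of 7 measured, 6 were called as lower, against 32.1% of all genes, with a median log2 fold change of -0.89. Nfkb2 fell from 9.48 ± 2.86 to 2.77 ± 0.801 FPKM (SD, n = 6 each; log2 fold change -1.46, SE 0.19, limma, adjusted p = 7.86e-05), close in size to Bcl3. Rela fell from 20.9 ± 3.47 to 10.1 ± 1.82 FPKM (log2 fold change -0.98, adjusted p = 0.000111). Pim3 was at 7.54 and 7.08 FPKM in the PZH and control groups and was, like Pim1, not called (adjusted p = 0.723).

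**Figure D5:**
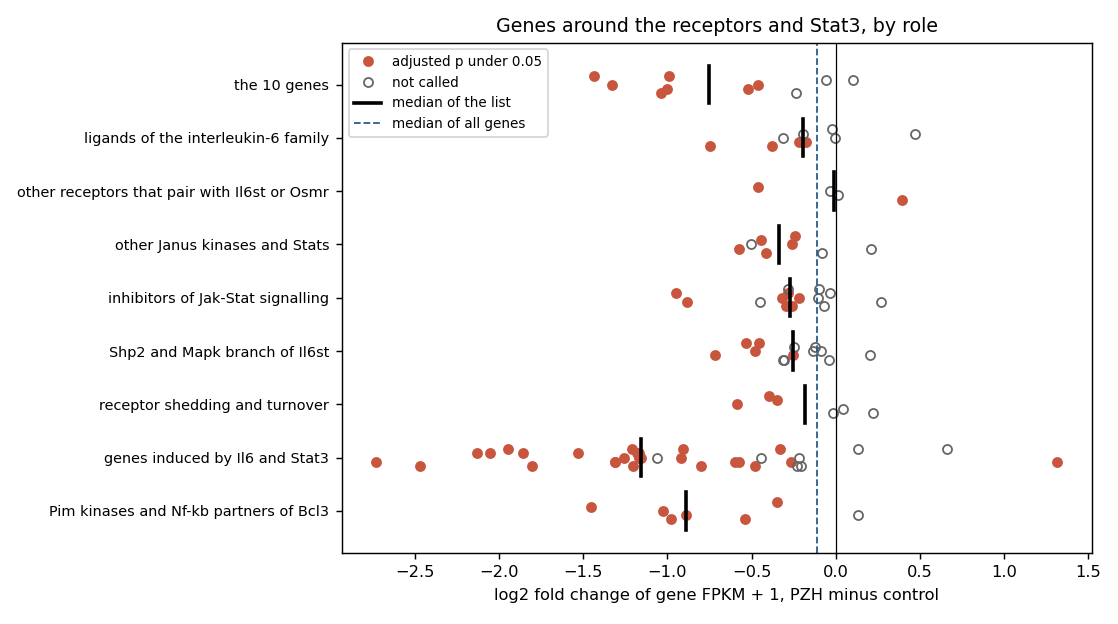
Log2 fold change of gene FPKM + 1 (PZH minus control, 6 and 6 mice) for the 10 genes and 8 lists of other pathway genes; filled points were called by limma, black bars are list medians and the dashed line is the median of all genes at -0.11. The genes induced by Il6 and Stat3 have a median of -1.16 with Birc5 at 1.32, and the Pim and Nf-kb list has a median of -0.89.

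Of 56 markers of liver cell types 20 were called (35.7%), against 44.8% of all genes. The sums below are carried by few genes: Alb, albumin, made up 78.6% of the hepatocyte sum in the PZH group, Lyz2, lysozyme 2, 74.0% of the monocyte and macrophage sum and Spp1, osteopontin, 92.8% of the cholangiocyte sum. Of 8 hepatocyte markers 4 were called as higher and 1 as lower, and their summed FPKM ran from 42251 to 58743 in the PZH mice and from 23983 to 37975 in the control mice. Of 8 stellate cell and myofibroblast markers 2 were higher and 2 lower, with sums of 282 to 355 and 217 to 324. Of 6 Kupffer cell markers 2 were higher and 1 lower, with sums of 157 to 234 and 143 to 207.2. Of 7 monocyte and macrophage markers 1 was higher and 3 lower, with sums of 238 to 405 and 185 to 335, though the median log2 fold change of the list was -0.32. These lists thus held calls in both directions.

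Of 7 neutrophil markers 1 was lower, with sums of 11.7 to 145 and 16.1 to 58.7, and Ly6g was at 0 in at least 1 mouse. Of 6 endothelial markers 2 were lower, with sums of 81.2 to 97.4 and 84.3 to 94.8, and of 6 cholangiocyte markers 1 was lower, with sums of 67.4 to 134 and 97.4 to 161 and Epcam at 0 in at least 1 mouse. None of the 8 markers of T, NK and B cells was called, at sums of 2.69 to 5.31 and 3.04 to 5.21. The part of cell composition in the lower levels of the 7 genes was not tested.

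The genes whose levels followed Bcl3 and Stat3 most closely from mouse to mouse were found by Pearson's r of group-centred log2(FPKM + 1) over the 12 mice, as a description. Over 10947 genes with a mean FPKM of at least 1, those nearest to Bcl3 were BC024978 (r = 0.937), E2f4 (0.930) and Ric8b (0.925). Those nearest to Stat3 were Mapkapk2 (0.953), Garem1 (0.951) and Pkp4 (0.943). Among the other members Socs3 came closest to Stat3 at 0.729, followed by Osmr at 0.706 and Bcl3 at 0.703, and Il6st was at 0.113. In likeness to Stat3 these members ranked 524, 656, 666 and 5570 of the 10947 genes. Many other genes thus followed Stat3 more closely than any member did. The values of 1 mouse share a library and its scaling.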

How the data were processed

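The authors made strand-specific libraries of total liver RNA, per the labels without ribosomal RNA, and sequenced paired-end reads of 150 bp. They trimmed the reads with Trimmomatic, mapped them to GRCm38 with HISAT2 2.1.0 and assembled transcripts with StringTie 1.3.5 and the Ensembl 95 annotation. The deposited values are FPKM per transcript and mouse, normalized for length and library size by the authors, and not counts. Counts were not recovered, so the depth behind a value is unknown and its precision is the spread between mice. The deposited lncRNA table was not used.

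Transcripts were assigned to genes with GENCODE M21, which held 29876 of the 29883, and gene FPKM was their sum. Groups came from the sample titles. limma 3.58.1 (R 4.3.3) was run on log2(FPKM + 1) over all genes and, separately, over all transcripts, with no filter and Benjamini-Hochberg adjustment. Single values were compared by two-sided exact permutation tests over 924 labellings (Python 3.11.15, numpy 2.4.6, scipy 1.17.1, pandas 2.3.3, matplotlib 3.10.9). Levels of neighbouring genes were compared by exact sign-flip tests. The fit was tested on simulated data.

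The members and the gene and marker lists were chosen with earlier results of these data known. Named genes were the members, the 2 strongest of each list, its largest called rise and fall, and the 3 genes most like Bcl3 and Stat3. Some genes of the lists are not reported here by name. Saa1, Lcn2, Il11 and the markers that lead a sum were named after their values were seen. Promoter sequences are from RefSeq (GRCm38.p6), where all 10 genes matched, and transcript sequences from GENCODE M21.

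As alternatives, the fit was repeated with 0.1 as pseudocount, with genes of mean FPKM 1 or more, with a median-ratio scale factor, an equal sum per mouse, a mean-variance trend, the mouse number as a block, the strongest transcript alone, and the 2-fold criteria. Further alternatives were shares without transcripts under a mean FPKM of 0.1, order by median, and each mouse left out. Correlations between pairs of mice ran from 0.895 to 0.939, and no library was a copy of another.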

Additional observations from a re-analysis of the deposited data

Results flagged for a closer look

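Within each group, 94 sets of 6 values for the 10 genes, their transcripts, shares and ratios were searched for a mouse that stands apart, by Dixon's 95% criterion for the ratio of gap to range, and 11 were found. Chance gives about 1 in 20.

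PZH 5 stood apart for Il6st, with 45.2 gene FPKM where the other PZH mice had 26.5 to 32.3, and for its main transcript Il6st-203, with 40.4 against 22.4 to 27.2 FPKM. Both values were still below every control mouse. PZH 6 stood apart for the weak Il6st-208, with 0.924 FPKM against 0 to 0.179, and control 6 for Il6st-201, with 0.903 FPKM against 0.533 to 0.655. The log2 ratio of Il6ra to Il6st was -4.13 in control 1, where the other control mice had -3.38 to -2.99.

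Lifr transcripts made up 4 of the 11. In PZH 6 the strongest Lifr transcript held 96.7% of the gene's FPKM, against 54.0% to 66.7% in the other PZH mice, and Lifr-204 was listed at 0, against 0.120 to 0.185 FPKM. Lifr-203 was at 40.6 FPKM in PZH 2, against 23.6 to 29.3, and Lifr-202 at 1.22 FPKM in control 5, against 0.0751 to 0.498.

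The strongest Stat3 transcript held 64.4% in control 2, against 60.3% to 61.8% in the other control mice, and that of Bcl3 held 100% in control 5, against 61.0% to 69.9%.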

How the results depend on the processing

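The call of 7 genes, all lower, was the same with 0.1 as pseudocount, with genes of mean FPKM 1 or more, with a median-ratio scale factor, an equal sum, a mean-variance trend, the strongest transcript alone and each mouse left out (7.0 to 7.0 genes). The 2-fold criteria gave 4 genes. Leaving out single mice gave 8 to 10 called transcripts, 54 to 60 of the other pathway genes and 5597 to 6437 of all genes. The median-ratio factor gave fewer calls than these ranges for the other pathway genes, 49, and for all genes, 5530. Among the recomputed fold changes of the 10 genes, 183 kept direction and side of the threshold, 5 changed sign, 1 lost its call and 1 gained one. The estimate of Pim1 changed sign under the median-ratio factor (0.11), with its strongest transcript alone (0.54), and with single mice left out (-0.18 to 0.031), and that of Lifr with its strongest transcript alone (-0.14). None of these passed the threshold, and the cause was not tested.

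The log2 ratio of Socs3 to Stat3 ran from -0.23 to 0.10 with single mice left out. That of Jak2 to Jak1 ran from 0.037 to 0.085, and without control 4 it was 0.085 with an unadjusted exact permutation p of 0.00866. By median FPKM, 6 of 10 genes kept their place in the control order.

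The labels number the mice of both groups alike. Deviations of same-numbered mice from their group means correlated at -0.02 to 0.04, and 1 of 6 PZH mice correlated best with its own number, so the numbers were not taken as pairs. With the number as a block, 7 members and 5982 of all genes were called by limma. Socs3 was then not called (adjusted p = 0.0729), and Il6ra was (-0.23, adjusted p = 0.0467).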

Other observations

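Among the control mice the same animals were at the ends for most of the 10 genes. Control 4 was the highest of its group for Osmr, Stat3, Socs3, Jak1, Jak2 and Pim1, and control 2 was the lowest for the same 6. Stat3, Socs3 and Jak1 put the 6 control mice in the same order, 4, 5, 1, 6, 3 and 2. Control 4 also had the highest level of Saa1, serum amyloid A1, with 893 FPKM, and of Lcn2, lipocalin 2, with 606 FPKM. Control 2 had the lowest, with 16.8 and 78.1 FPKM. In the PZH group, PZH 1 was the lowest for Il6ra, Stat3, Socs3, Jak1 and Bcl3 and the highest for Pim1. It had the lowest Saa1, 10.6 FPKM, but not the lowest Lcn2, at 49.5 FPKM in a PZH range of 30.4 to 53.2 FPKM. Its median-ratio scale factor, 0.856, was the lowest of any library. The Saa1 level of control 2 lay within the PZH range of 10.6 to 34.8 FPKM, while its Stat3, at 32.8 FPKM, was above every PZH mouse. Values of 1 mouse share a library, and no cause of these orders was tested.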
